A study of Homo sapiens with 6 samples.

Results

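The clustered protocadherin genes are the PCDHA, PCDHB and PCDHG genes that lie side by side on the long arm of chromosome 5. Members were taken by symbol, as every gene whose name starts with PCDHA, PCDHB or PCDHG followed by a letter or a number, and were looked up in the lists that give, for N-Myc, for JMJD6 and for the 2 together, the bound promoters, the bound typical enhancers (stretches of chromatin that carry acetylated H3K27) and the bound super-enhancers (the largest such stretches). The annotation held 60 such symbols, of which 53 were protein-coding genes and 7 were pseudogenes or an antisense gene, none of which was in any list. The coding members were 13 alpha genes, 16 beta genes, 12 gamma A genes, 7 gamma B genes and 5 C-type genes. Of the 60 symbols, 3 were named in a list (PCDHA4, PCDHA5 and PCDHGC5), whereas the lists named 7976 genes of the annotation in all.

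Binding was measured by chromatin immunoprecipitation and sequencing (ChIP-seq) in CHP-134 cells, a human neuroblastoma line that overexpresses N-Myc, with 3 replicates for an antibody against N-Myc and 3 for an antibody against JMJD6. Cells were cross-linked with formaldehyde alone for N-Myc, and with DSG and then formaldehyde for JMJD6, so a difference between the proteins and a difference between the protocols cannot be told apart. A common peak is a stretch that the authors called as bound in all replicates of a protein. The comparison asks where the 2 proteins sat on the genome of 1 cell line, and the lists give positions without any height, score or read count.

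Clustered protocadherins are cell-surface adhesion proteins of neurons, and each neuron expresses its own small set of them, which lets its branches tell self from non-self. Every alpha and gamma variable exon has its own promoter, and its transcript is spliced to constant exons shared by the whole alpha or gamma cluster, while each beta gene is a single exon. The choice of promoter is known to depend on DNA methylation, on the insulator protein CTCF and on cohesin, which bring promoters together with distant enhancers. N-Myc binds DNA as a dimer with MAX, with the E-box CACGTG as its preferred sequence, and JMJD6 is a Jumonji domain protein that has been placed at enhancers.

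One N-Myc common peak lay inside a variable exon, and its sequence is shown because it is the single peak between the first and the last start site of the clusters. It spanned chr5:140187107-140187392 (GRCh37, plus strand), 286 bp of the protein-coding part of the first exon of PCDHA4. The capitals mark CCACTAGAGGGC, a match to a CTCF-type pattern that was chosen after this sequence was seen. The pattern is CCA, AG and GGC in that order, with 2 bases of any kind between them, and is the core of the CTCF recognition sequence.
PCDHA4 peak: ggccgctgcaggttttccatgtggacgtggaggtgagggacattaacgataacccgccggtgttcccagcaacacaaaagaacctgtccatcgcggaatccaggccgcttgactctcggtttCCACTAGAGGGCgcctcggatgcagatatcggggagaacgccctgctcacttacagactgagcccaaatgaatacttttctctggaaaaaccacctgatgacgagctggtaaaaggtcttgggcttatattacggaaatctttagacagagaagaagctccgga

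Of the 4 CACGTG or CACGCG words in the other N-Myc peaks that belong to rows naming a member, 3 are shown for contrast, with CACGTG or CACGCG in capitals and 10 bases on each side. The first lies at chr5:140892358-140892383, in the last exon shared by the gamma genes, and the other 2 at chr5:140998753-140998778 and chr5:140998862-140998887, next to the start of DIAPH1. All 3 are on the plus strand of GRCh37. The word not shown is a CACGCG on the minus strand of the DIAPH1 start peak, at chr5:140998926-140998931.
Gamma 3′ end peak, CACGCG: gtgctgtgtcCACGCGctaaggcgac
DIAPH1 start peak, first CACGTG: cattcggaccCACGTGggggggggtg
DIAPH1 start peak, second CACGTG: acgcagcgccCACGTGgctgtacagc

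N-Myc was listed at the promoter of 1 of the 53 coding members, PCDHA4, a share of 1.89% (exact binomial 95% CI 0.0478 to 10.1%). Across autosomal protein-coding genes, 3526 of 18639 had a promoter in the N-Myc list (18.9%). A listed promoter was the 1 kb on each side of a RefSeq start site that overlapped a common peak. Taken from the common peaks and the annotated start sites instead, the count was again 1 of 53, against 21.6% of autosomal coding genes. By subcluster the count was 1 of 13 alpha genes (7.69%, CI 0.195 to 36.0%), 0 of 16 beta genes (CI up to 20.6%), 0 of 12 gamma A genes (CI up to 26.5%), 0 of 7 gamma B genes (CI up to 41.0%) and 0 of 5 C-type genes (CI up to 52.2%). Only the interval over all coding members lay below the share among all genes, and those of the subclusters each held it. The members share one stretch of chromosome, so they are not independent draws and the intervals cover counting error alone.

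JMJD6 was listed at the promoter of 0 of 53 coding members (CI up to 6.72%), and the background was 0.676% of autosomal coding genes. The interval held that background, so a lower share of members was not detectable for JMJD6. With common peaks and annotated start sites the count was also 0, against 0.826%, and in the list of promoters bound by both proteins it was 0, against 0.322%.

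Enhancers and super-enhancers were listed with their nearest genes. Those of N-Myc named 3 of 53 coding members (5.66%, CI 1.18 to 15.7%), and 34.2% of autosomal coding genes were so named. Those of JMJD6 named 0 of 53, against 1.04%. The lists named only the nearest genes of each region, and coding members stood 6.39 kb apart at the median. A region in or beside the clusters could therefore name few of them, whatever the binding. The shares of members and of all genes are thus not directly comparable for either protein. Counted by region, N-Myc gave a member in 1 promoter out of 5114, in 3 typical enhancers out of 4649 and in 1 super-enhancer out of 162, while for JMJD6 the counts were 0 of 177, 0 of 96 and 0 of 9.

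Other gene families that lie in clusters gave shares between those of the members and of all autosomal coding genes. Among HOX genes, which pattern the body axis, 4 of 39 had a promoter in the N-Myc list (10.3%, CI 2.87 to 24.2%). Among the clustered histone genes 6 of 65 did (9.23%, CI 3.46 to 19.0%). The intervals of both families overlapped that of the protocadherins and also held the 18.9% of all autosomal coding genes, so neither family is separated from either. In the neighbourhood, 9 of 38 other coding genes within 1 Mb of the clusters had a promoter in the N-Myc list (23.7%, CI 11.4 to 40.2%), and this interval did not overlap that of the members. JMJD6 was listed at no HOX or clustered histone promoter.

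**Figure D1:**
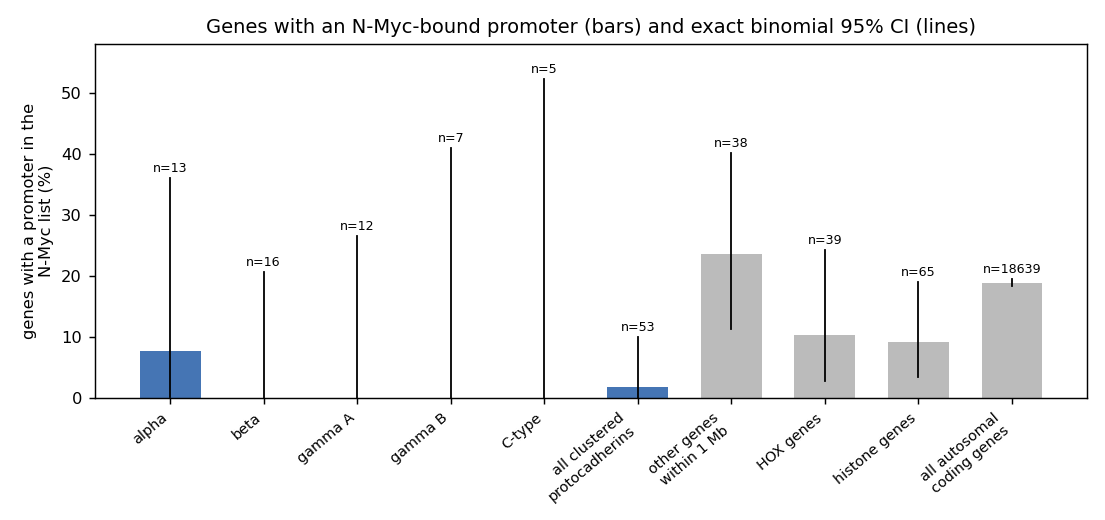
Share of genes with a promoter in the N-Myc list (vertical axis, percent) for each protocadherin subcluster and all coding members (blue bars) and for other gene sets (grey bars), with exact binomial 95% confidence intervals as lines and the number of genes above each. The members stand at 1.89% and all autosomal coding genes at 18.9%.

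The clusters ran over 703 kb, from the start site of PCDHA1 at chr5:140165725 to that of PCDHGC5 at chr5:140868648, with a median of 6.39 kb between neighbouring coding start sites. The PCDHA4 peak was the single N-Myc common peak in that stretch, a density of 1.42 peaks per Mb. Extending it to the last gene end at 140892542 added the peak at the end of the gamma cluster and gave 2.75 per Mb. The density was 2.83 per Mb on chromosome 5 and 3.48 per Mb over the autosomes. With the gamma 3′ end counted, the density was near that of the chromosome, although that stretch held 53 start sites. That value rests on 2 peaks, and the extension was chosen after seeing the data.

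Between the PCDHA4 peak and the gamma 3′ end peak lay 705 kb without an N-Myc common peak, which held 49 coding start sites. Such a gap was not rare, as 62 of 511 gaps between neighbouring N-Myc peaks on chromosome 5 were longer (12.1%), and 9.99% of those on all autosomes were. The last N-Myc peak upstream of the clusters, over the start sites of HARS and HARS2, was 94.5 kb before the PCDHA1 start site and 116 kb before the PCDHA4 peak.

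The distance from a start site to the nearest N-Myc peak depended on where the gene lay along the clusters. Over the coding members its median was 130 kb, from 0.454 kb at PCDHA4 to 342 kb at PCDHB6, and its median over autosomal coding genes was 55.4 kb. The median was 26.6 kb for alpha genes, 314 kb for beta genes, 134 kb for gamma A genes, 125 kb for gamma B genes and 36.8 kb for C-type genes. For every coding member the nearest peak was the one at PCDHA4 or the one at the gamma 3′ end. These medians therefore restate gene order and are not a trait of the subclusters, nor are they read against the 55.4 kb. The closest members after PCDHA4 were its upstream neighbours PCDHA3, at 6.46 kb, and PCDHA2, at 12.7 kb. The nearest JMJD6 peak to any member, chr5:134260126-134260395, was 5905 kb upstream of the PCDHA1 start site, and 14 JMJD6 common peaks were listed on all of chromosome 5.

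**Figure D2:**
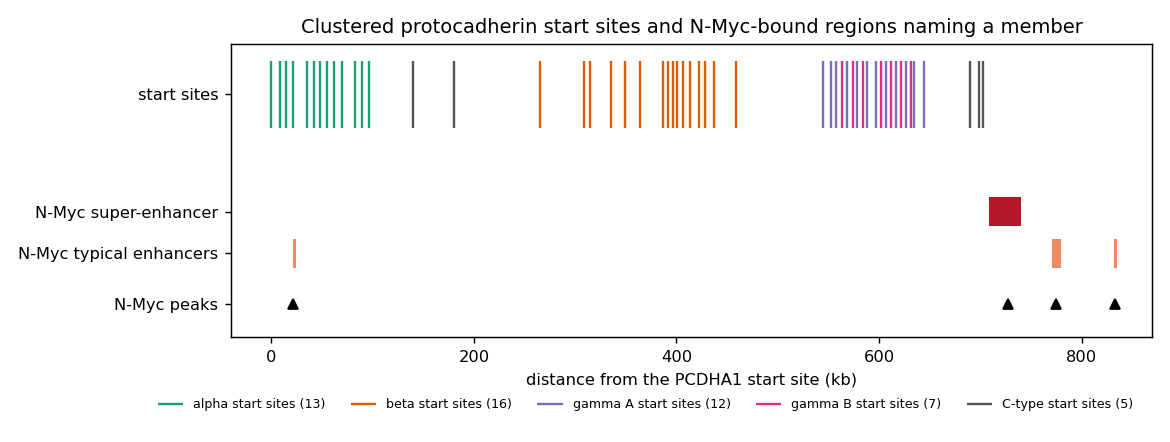
Start sites of the 53 coding members, coloured by subcluster, with the N-Myc super-enhancer, the typical enhancers and the N-Myc peaks of rows that name a member. The horizontal axis is the distance from the PCDHA1 start site in kb. One peak stands among the alpha start sites and 3 stand beyond the last start site, with 705 kb without a peak between them.

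PCDHA4 encodes one of the alternate alpha protocadherins. Its listed promoter was chr5:140185658-140187658, and the peak began 449 bp and ended 734 bp downstream of the promoter centre. The peak was thus inside the coding exon and not over the start site. It was narrow, with 11% of all N-Myc common peaks narrower and a median width of 418 bp among them. The same peak also lay in a typical enhancer of 954 bp, chr5:140186577-140187530, which reached from 81 bp upstream to 872 bp downstream of the promoter centre and so covered the start site. One binding site thus entered the promoter list once and the enhancer list once. The study's methods state that H3K27ac peaks within 1 kb of start sites were removed before enhancers were defined. This whole region lay within 1 kb of the PCDHA4 promoter centre, so it is not shown to be an element apart from the promoter. Why it stayed listed was not tested.

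That enhancer also accounts for the listing of PCDHA5, another alternate alpha gene. The list placed it at 280 bp downstream of the start of PCDHA4 and at −14308 bp from that of PCDHA5, its 2 nearest genes. The nearest peak lay 13.8 kb upstream of the PCDHA5 start site. Of typical enhancers bound by N-Myc, 12.7% were shorter than this one, and their median length was 2553 bp.

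PCDHGC5, a C-type gamma gene and the last start site of the clusters, was named by 2 typical enhancers and 1 super-enhancer, each shared with DIAPH1 as the other nearest gene. DIAPH1 encodes a formin that assembles actin filaments, and it lies after the gamma cluster on the opposite strand. The enhancer chr5:140936936-140945118 was 72219 bp from the PCDHGC5 start site by the list, and its N-Myc peak, chr5:140940257-140940626, lay in a DIAPH1 intron. The enhancer chr5:140997907-140999107 was 129699 bp from PCDHGC5 and 115 bp from DIAPH1, and so also lay beside a start site. Its N-Myc peak, chr5:140998643-140999096, was also the one in the listed DIAPH1 promoter.

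The super-enhancer chr5:140873875-140905969 spanned the end of the gamma cluster. It was 32.1 kb long, and ranked 65 of the 162 N-Myc super-enhancers by length, where the median was 28.4 kb. It began 5.23 kb after the PCDHGC5 start site, just before the first of the 3 exons shared by all 22 coding gamma genes, and ran 13.4 kb past the last exon end. One N-Myc peak lay in it, as in 58 of the 162, and the median was 2. This peak, chr5:140892351-140892920, was 570 bp wide. It covered the last 192 bp of the shared 3′ untranslated region and 378 bp beyond it, and ended 1662 bp short of the 3′ end of DIAPH1. None of the 4 peaks overlapped a JMJD6 peak.

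The peaks differed in their E-boxes. CACGTG was found in 1 of the 4, the DIAPH1 start peak, which held 2 copies, 1 of them 5.5 bp from its centre. Over all N-Myc common peaks, 33.4% of 10172 held CACGTG and 15.9% held CACGCG, against 5.21% and 2.39% of windows of the same length placed 5 kb downstream. The PCDHA4 peak held neither. CACGCG was found in 2 of the 4, once in the gamma 3′ end peak, at 264 bp from its centre, and once in the DIAPH1 start peak, at 59.5 bp. All 4 peaks held the looser CANNTG, as did 93.4% of all N-Myc peaks and 88.0% of the downstream windows. CACGTG is itself a CANNTG match, and all words were searched on both strands.

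The PCDHA4 peak held the CTCF-type letters 14.5 bp from its centre, at chr5:140187229-140187240. The pattern was present in 762 of 10172 N-Myc common peaks (7.49%), in 1.64% of the downstream windows and in 1.78% of 561 JMJD6 common peaks. Median GC content was 53.2% in the N-Myc peaks, 44.1% in the windows and 40.8% in the JMJD6 peaks. The part of base composition in these shares was not tested. The other 3 peaks of the rows naming members held no exact match. The match is a description of the letters in this window, and binding by CTCF was not measured here. The peak was also dense in CpG, the site of DNA methylation, with 16 CpG in 286 bp, or 0.825 of the number its base composition gives, where the median of N-Myc peaks was 0.404. The gamma 3′ end peak stood at 0.848, the DIAPH1 start peak at 0.672 and the DIAPH1 intron peak at 0.102.

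The same place in the first exon of the other alpha genes was compared with the peak, because these exons arose by duplication. Identity to the peak was 70.6 to 89.9% over the other 12 alpha genes (median 74.5%), and was highest in PCDHA7 and PCDHA9, both at 89.9%. It was 56.6 to 62.6% in beta genes, 55.9 to 65.4% in gamma A genes, 61.2 to 63.6% in gamma B genes and 59.1 to 67.1% in C-type genes. An exact match to the CTCF-type pattern stood at the aligned place in 5 of 13 alpha genes, namely PCDHA4, PCDHA7, PCDHA9, PCDHA10 and PCDHA13. PCDHA5, PCDHA6, PCDHA8, PCDHA11 and PCDHA12 matched 7 of its 8 fixed letters there, and PCDHA1, PCDHA2 and PCDHA3 matched 6. All alpha genes thus held the pattern or came near it. No beta, gamma or C-type gene had an exact match there, although for 25 of these 40 genes the alignment had a gap in that place. PCDHA4 alone of the 5 had a common peak.

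Aligned stretches of 23 bases are shown for the 5 genes with the pattern and for PCDHA5 and PCDHA6, the next alpha genes downstream of PCDHA4, which missed it in 1 fixed letter, with the 12 aligned letters in capitals. All are on the plus strand of GRCh37. They lie at chr5:140187225-140187247 (PCDHA4), chr5:140214421-140214443 (PCDHA7), chr5:140228533-140228555 (PCDHA9), chr5:140236083-140236105 (PCDHA10), chr5:140262306-140262328 (PCDHA13), chr5:140201810-140201832 (PCDHA5) and chr5:140208129-140208151 (PCDHA6).
PCDHA4: gtttCCACTAGAGGGCgcctcgg
PCDHA7: gtttCCACTAGAGGGCgcgtccg
PCDHA9: gtttCCACTAGAGGGCgcgtccg
PCDHA10: atttCCACTAGAAGGCgcatctg
PCDHA13: atttCCACTAGATGGCgcatccg
PCDHA5: gtttCCGCTAGAGGGCgcgtcgg
PCDHA6: gtttCCACTGGAGGGCgcgtccg

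**Figure D3:**
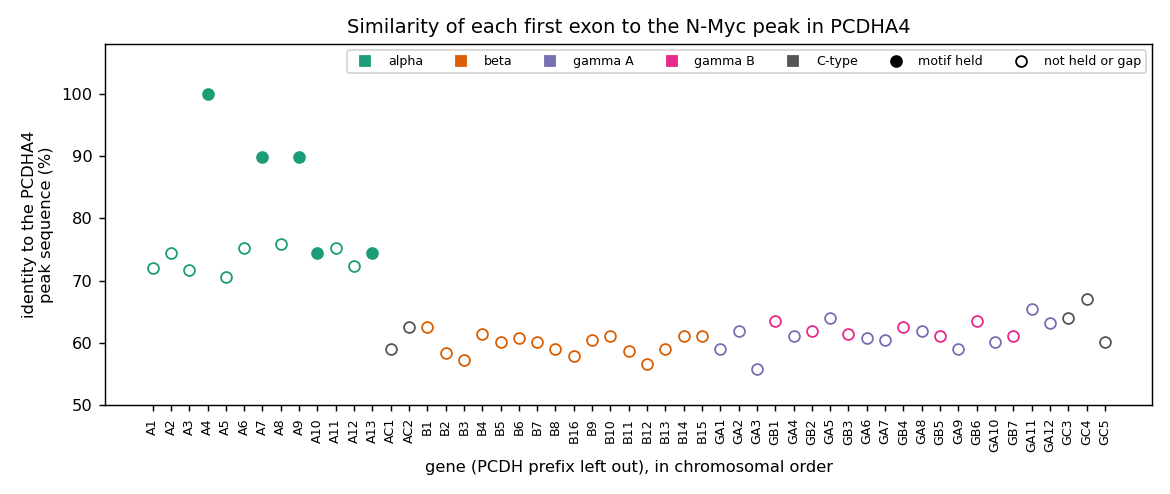
Identity of the best aligned stretch of each coding member's first exon to the PCDHA4 peak sequence (vertical axis, percent), in chromosomal order along the horizontal axis and coloured by subcluster. Filled points hold an exact match to the CTCF-type pattern at the aligned place. The alpha genes stand at 70.6% or above, with PCDHA7 and PCDHA9 at 89.9%, and the filled points are all alpha genes.

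Similar exons raise the question of whether reads could be placed. All 212 stretches of 75 bp, the length of the reads, in the PCDHA4 peak occurred once in the reference, as did those of the other 3 peaks. The peak had 12 other matches in the genome, all in exons of members, the best of them 288 bp long at 88.9% identity in PCDHA7. The corresponding windows of PCDHA7 and PCDHA9 were 99.3% identical to each other, and 79 of 212 stretches (37.3%) were unique in each. The windows of the other alpha genes were unique throughout. Absence of a common peak at PCDHA7 and PCDHA9 is therefore less certain than at the other alpha genes.

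Promoter sequence was described over the 250 bases before and 50 bases after each start site, in the same way for all 18639 autosomal coding genes. The members had a median GC content of 39.7% (32.3 to 66.0%), where the median was 63.7% over all genes and 64.0% over genes with a promoter in the N-Myc list. The C-type genes, which are expressed more evenly than the alternate genes, had a median of 60.7%, while alpha genes stood at 37.3%, beta genes at 40.3%, gamma A genes at 38.0% and gamma B genes at 47.7%. The CpG ratio of the members was 0.593 at the median, against 0.781 over all genes. PCDHA4 was not apart from the other alpha genes, with a GC content of 40.3% and a CpG ratio of 0.411 in an alpha range of 33.3 to 40.7% and 0.347 to 0.938.

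Base composition moved with the listing of promoters over the whole genome. Among genes with a promoter GC content below 50%, 151 of 2988 had a promoter in the N-Myc list (5.05%), and 3375 of 15651 of the others did (21.6%). Of the coding members 47 were in the first class, of which 1 was listed, and 6 were in the second, of which 0 were. The part of base composition in the members' count was not tested. CGCT, the core of the conserved sequence element of protocadherin promoters, was in the window of 51 of 53 members (96.2%). It was also in 82.4% of all genes and in 94.6% of genes with a promoter in the N-Myc list. A word this short is common in promoter windows, so these counts do not show the element itself.

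**Figure D4:**
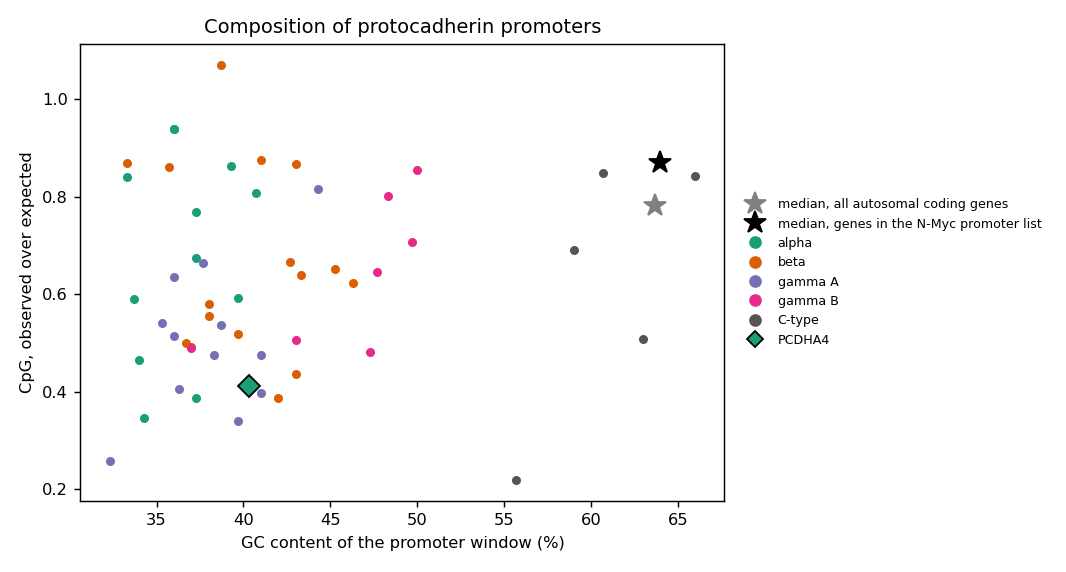
GC content of the promoter window (horizontal axis, percent) against the ratio of observed to expected CpG (vertical axis) for the 53 coding members, coloured by subcluster, with PCDHA4 as a diamond. Stars mark the medians of all autosomal coding genes and of genes in the N-Myc promoter list. Only C-type genes lie above 50% GC, and PCDHA4 lies among the other alpha genes.

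E-boxes were present near members that N-Myc was not listed at. CACGTG lay within 1 kb of the start site of 12 of 53 coding members (22.6%), against 29.3% of all autosomal coding genes. These were PCDHA2, PCDHA9, PCDHA10, PCDHA11, PCDHB1, PCDHB14, PCDHB15, PCDHGB1, PCDHGB3, PCDHGB4, PCDHGB5 and PCDHGA8. Counted from the start site to the middle of the word, the closest lay at −86 bp in PCDHA9, −117 bp in PCDHA11 and −197 bp in PCDHA10. None of the 12 was in the N-Myc promoter list, whereas 30.4% of the 5455 autosomal coding genes with a CACGTG in this window were, and 14.2% of those without one. All 12 had a promoter GC content below 50%, the highest being 49.7% in PCDHGB4. In that class 5.05% of autosomal coding genes were listed. E-box and GC content were not counted together, and the 12 share one stretch of chromosome, so nothing is read from 0 of 12 against 30.4%. CACGCG was found in 9 of 53 members (17.0%, against 41.6%), and the CTCF-type pattern in 10 (18.9%, against 11.3%), of which 5 were alpha genes, 4 gamma A genes and 1 a beta gene. The 5 alpha genes were PCDHA4 and those with the pattern at the aligned place in their exons. As the pattern was chosen from the PCDHA4 peak, the 18.9% is not read against the 11.3%.

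Genes that work with the protocadherins were looked up from lists. Of 18 genes for regulators of protocadherin promoter choice, 4 had a promoter in the N-Myc list (22.2%), near the 18.9% of autosomal coding genes. They were SMC3 (a cohesin subunit), DNMT1 and DNMT3A (DNA methyltransferases) and SETDB1 (a histone methyltransferase). The common peak was 362 bp wide at SMC3 (chr10:112326873-112327234) and 511 bp at SETDB1 (chr1:150898547-150899057), each with 1 CACGTG. It was 375 bp at DNMT1 (chr19:10305617-10305991) and 653 bp at DNMT3A (chr2:25474186-25474838), with none. The promoter of CTCF was not listed. Enhancers bound by N-Myc named 6 of the 18 (33.3%), near the 34.2% of autosomal coding genes that its enhancers or super-enhancers named. These were STAG2, NIPBL and ATF7IP besides SMC3, DNMT3A and SETDB1. JMJD6 was listed at none of their promoters, and 1 enhancer and 1 super-enhancer in its lists named ATF7IP, a partner of SETDB1. Its enhancers or super-enhancers named 1.04% of autosomal coding genes, and 1 gene is too few to read against that.

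Of 20 genes for binding partners and for proteins that cut or signal from protocadherins, 5 had a promoter in the N-Myc list (25.0%, against 18.9% of autosomal coding genes), and no difference from the background is read from either list. The 5 were WASF1 and BRK1 of the WAVE complex, APH1A of gamma-secretase, the kinase substrate MARCKS and PDCD10. N-Myc enhancers named 4 of the 20 (20%), the tyrosine kinase FYN, BRK1, APH1A and MARCKS, and a super-enhancer also named FYN. Its enhancers or super-enhancers named 34.2% of autosomal coding genes. A JMJD6 enhancer named PRKCA, a protein kinase C, which is 1 gene and too few to read against 1.04%. Of 13 protocadherins outside the clusters, 0 had a promoter in the N-Myc list, too few genes to read against 18.9%. N-Myc enhancers named 2 of the 13 (15.4%, beside the same 34.2%), PCDH10 and PCDH17. Of 18 neighbours on the same chromosome band, 4 had a promoter in the N-Myc list (22.2%), again near 18.9%. They were WDR55, HARS, HARS2 and DIAPH1, where HARS and HARS2 share 1 peak of 675 bp between them. JMJD6 was listed at no promoter of any of these lists.

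The lists cannot show which cells were used by expression, but enhancer assignments of adrenergic neuroblastoma factors were checked. N-Myc enhancers named HAND2, GATA3, ISL1 and TBX2, and N-Myc super-enhancers named HAND2 and GATA3, while no promoter of these genes was listed for either protein. Of all autosomal coding genes, 34.2% were named by an N-Myc enhancer or super-enhancer, so such naming does not by itself identify the cells. Expression was not measured in these files.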

How the data were processed

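ChIP-seq samples of CHP-134 cells were grouped by antibody, 3 for N-Myc and 3 for JMJD6. Per the labels and the study's methods, the authors aligned reads with BWA to hg19, used SAMtools and bedtools on the alignments, and ran MACS2 2.1.1.20160309 against input with a q-value limit of 0.05. Promoters were 1 kb on each side of RefSeq start sites. Enhancers and super-enhancers came from H3K27ac peaks (ROSE, stitched at 12.5 kb), with nearest genes assigned by GREAT. By the study's methods, H3K27ac peaks within 1 kb of start sites were removed first. The H3K27ac data were not used here, so an enhancer is seen only where bound. The deposited values in the 12 lists are positions in bp and pool the replicates. Depth per sample is unknown here, and no test across samples could be made. Whether the replicates came from separate cultures is not given in the sources used here.

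Members were matched by symbol to GENCODE version 44 lifted to GRCh37, with 1 start site per gene (the canonical transcript) unless stated. Of 4914 N-Myc promoters matched by symbol, 4310 (87.7%) had their centre within 100 bp of an annotated start. Another 200 N-Myc and 7 JMJD6 promoters matched no gene. Overlap meant at least 1 bp. Shares have exact (Clopper-Pearson) 95% intervals. Motifs were counted in the reference, exons were aligned with Biopython 1.88 and matches were found with BLAST 2.17.0. Python 3.11.15, numpy 2.4.6, SciPy 1.17.1, pysam 0.24.0 and matplotlib 3.10.9 were used. Overlap and motif counting were tested on simulated data. The members and gene lists were chosen with earlier results of these data known. Every member named in a list was described, and other genes were named from the gene lists where listed. One gene of the lists is not reported here.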

Additional observations from a re-analysis of the deposited data

How the results depend on the processing

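Of 24 alternative values, 17 kept the count or stayed within its interval. For the shares of the 4 peaks with CACGTG or with the CTCF-type pattern that interval was wide, 0.631 to 80.6%. PCDHA4 remained the only member with an N-Myc peak when common peaks over flanks of 500 bp, 1 kb or 2 kb, or peak midpoints, were used in place of the listed promoters. The count was 0 of promoters, and 0 peaks lay between the first and last start site, when only common peaks wider than the median were used. Between those start sites the count of N-Myc peaks was 1, and became 4 with 100 kb added on each side and 2 when run to the last gene end, a choice made after seeing the data. All 9 alternatives for JMJD6 gave 0, but they could not have differed, as its nearest peak lay 5905 kb from the clusters. The share of the 4 peaks with an E-box was 25.0% for CACGTG and 100% for CANNTG. With 1 mismatch allowed, also chosen after seeing the data, 75% of the peaks held the CTCF-type pattern, in place of 25.0%. The share with 1 mismatch was not counted over all N-Myc peaks or the downstream windows, so nothing is read from the 75%. The median width of the 4 peaks was 412 bp, and was 286 bp for the 1 peak over a listed promoter or between the start sites.

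No paired analysis was possible because the lists pool the replicates of each protein and have no column per sample. No replicate was left out for the same reason. The lists hold no peak height or q-value, and peaks present in fewer than all replicates are not in them. Absence from a list is not absence of binding. JMJD6 had 561 common peaks and N-Myc 10172, which limits what 0 peaks in the clusters can show for JMJD6.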
